A study of Bos taurus with 12 samples.

Results

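Tissue factor, thrombomodulin, tissue factor pathway inhibitor and the genes of plasminogen activation are described here in the endometrium, the inner lining of the uterus, of Simmental heifers. The 7 genes F3, TFPI, THBD, PLG, PLAT, PLAU and PLAUR were chosen by symbol, and all 10 probe sets that the platform annotation gives to one of them were used, out of 9155 genes named by exactly 1 symbol and 24016 probe sets tested. The choice of these genes was made with earlier results from the same 12 arrays known, so every p-value below is the output of a fit over all probe sets and describes these pools, and is no independent evidence about the genes. RNA from endometrial pools had been hybridised to Affymetrix bovine arrays, 1 pool per array, and 4 groups of 3 pools were formed by the state of the endometrium and the day of the estrous cycle. The groups were non-receptive on day 3, receptive on day 3, non-receptive on day 7 and receptive on day 7. By the series title, receptivity refers to pregnancy success after transfer of embryos produced in vivo, so the state was assigned from an outcome and not imposed by a treatment. The labels name no treatment, and they give neither the number of heifers in a pool nor whether pools came from separate animals, so p-values measure the spread between pools, which may be technical.

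Blood clotting begins when tissue factor, a membrane protein, binds circulating factor VII, which leads to thrombin and then to fibrin. Tissue factor pathway inhibitor blocks that first complex, and thrombomodulin on the vessel wall turns thrombin toward the activation of protein C, which slows clotting. Plasmin dissolves fibrin and cuts matrix proteins: it is made from plasminogen by tissue-type plasminogen activator or by urokinase, and urokinase acts at the cell surface through its receptor. In the uterus these proteins are known from the control of bleeding, from menstruation in primates and from the tissue remodelling that accompanies implantation.

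All values are log2 signals as deposited, on a scale whose lowest value is 0, a floor at which no order can be read. The array medians lay between 6.64 and 6.76, and each array had 257 to 450 probe sets at that floor. Correlations between pools of 1 group were 0.952 to 0.971. Markers of glandular and luminal epithelium were bright on every array, with a summed level of 14.58 to 15.06 for the 9 of 10 listed genes that were measured and none of them below 5 on average, so the epithelial part of the labelled tissue was present in every pool. The actin controls of the array, which give a sign of RNA integrity, were brighter at the 3′ than at the 5′ end by 0.48 to 0.93 in the non-receptive and 1.05 to 3.11 in the receptive pools of day 3, and 0.02 to 0.63 against 0.82 to 1.25 on day 7, so this actin gap did not overlap between the receptivity groups on either day. The other integrity controls did not follow it: the same gap for GAPDH was 0.37 to 1.04 over all pools and overlapped between the receptivity groups on both days, and that for EF1A was -0.81 to -0.50 in the non-receptive and -1.27 to -0.90 in the receptive pools of day 3, without overlap but in the opposite direction, and overlapped on day 7. Depth is not a property of arrays, and the precision was limited by the 3 pools per group.

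F3, which encodes tissue factor, was among the brighter signals of the array, with a mean of 10.45 over the 12 pools and 94% of probe sets dimmer. In the non-receptive group on day 3 it measured 8.79, 8.77 and 9.73. The receptive pools of day 3 had 11.04, 10.60 and 11.16. On day 7 the non-receptive pools had 10.79, 10.90 and 11.41 and the receptive pools 11.10, 10.53 and 10.60. The 3 non-receptive pools of day 3 were thus below all 9 other pools, and the other 3 groups overlapped each other.

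Averaged over both receptivity groups, F3 transcripts were more abundant on day 7 than on day 3, with means of 10.89 and 10.02 and a difference of 0.87 ± 0.21 (SE, 6 pools per day, adjusted p = 0.0229, limma). It was the 1 of the 10 probe sets that passed an adjusted p of 0.05 in this comparison, in which 14.2% of all probe sets passed. In the non-receptive group alone F3 rose from 9.10 ± 0.55 (SD, n = 3) on day 3 to 11.03 ± 0.33 on day 7, a difference of 1.94 ± 0.29 (SE) or 3.83-fold (adjusted p = 0.0165, limma), where 2.48% of all probe sets passed. In the receptive group the means were 10.93 ± 0.29 and 10.74 ± 0.31 (SD, n = 3), and the difference of -0.19 ± 0.29 (SE) did not pass (adjusted p = 0.77, limma). The comparison over both groups uses the same pools as the comparisons within each group. Both of the calls were lost when non-receptive day 3 pool 1 was left out, at adjusted p = 0.0602 and 0.0863, and when pool 2 of that group was left out, at adjusted p = 0.054 and 0.0614. The call within the non-receptive group was also lost when only its 6 pools were fitted, at the same difference of 1.94 (adjusted p = 0.0919, limma). In a bulk sample, fewer cells of a type and less RNA per cell cannot be told apart.

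Between receptivity groups on day 3, F3 was higher by 1.84 ± 0.29 (SE) in the receptive pools, 3.57-fold, with no overlap between the groups. This difference had the 7th smallest p of the 24016 probe sets, 9.95e-05 before adjustment, and did not pass after it (adjusted p = 0.306, limma). On day 7 the receptive minus non-receptive difference was -0.29 ± 0.29 (adjusted p = 0.885, limma). The change between the days differed between the receptive and the non-receptive group by -2.13 ± 0.42 (SE), with an unadjusted limma p of 0.000467 and an adjusted p of 0.935, so the difference between the day changes did not pass over all probe sets. Non-receptive day 3 pool 3, which had the highest F3 of its group, was also the pool of that group with the lowest summed stromal marker level, 12.05 against up to 14.53, and the lowest summed endothelial level, 9.36 against up to 11.01. The receptive pools of day 3 had stromal levels of 13.46 to 13.57 and endothelial levels of 10.15 to 10.29, near those of non-receptive pool 1 (13.69 and 10.43), with F3 at 10.60 to 11.16 against 8.79 in that pool. Summed macrophage markers overlapped between the receptivity groups on day 3, at 10.71 to 11.31 in the non-receptive and 10.67 to 10.97 in the receptive pools. The part of the control gaps, of these marker levels and of cell composition in the F3 values was not tested.

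**Figure D1:**
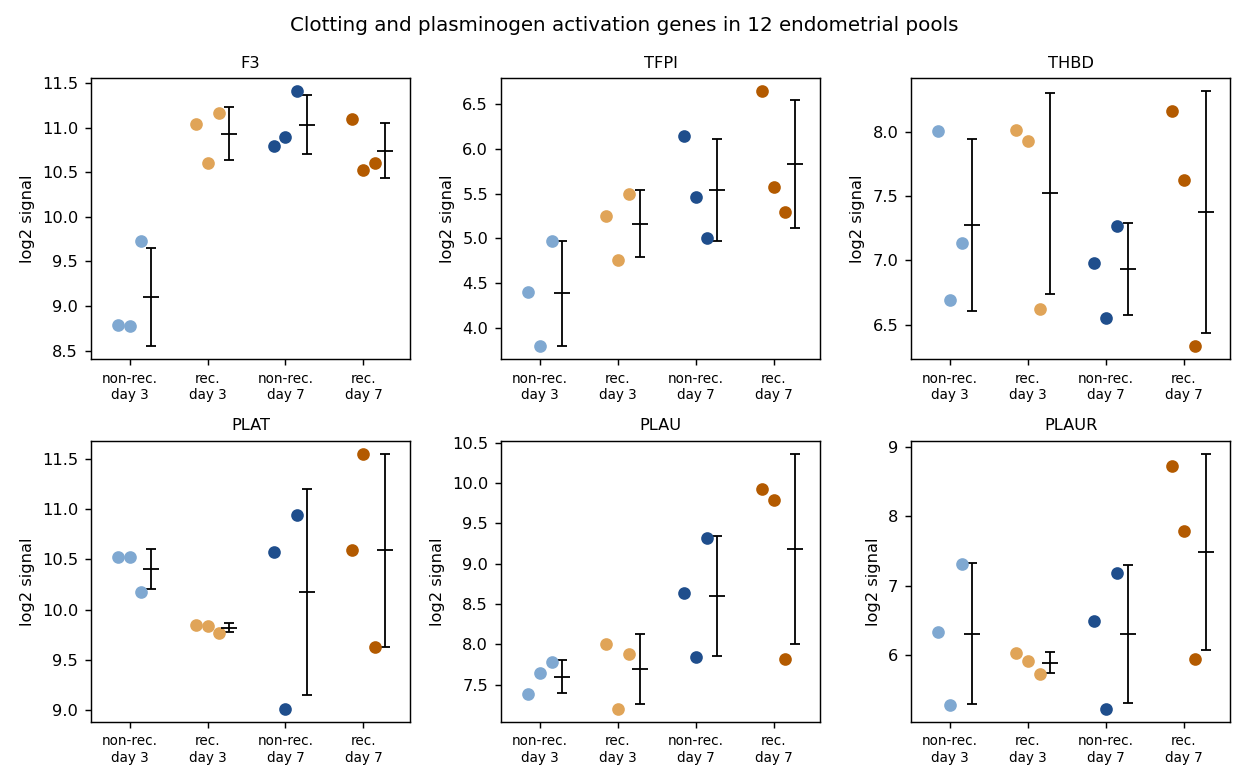
Log2 signal (y axis, a separate range in each panel) of the brightest probe set of 6 genes in the 4 groups; points are the 3 pools of a group in the order 1 to 3, and the black bar is the mean ± SD. F3 lies at 8.77 to 9.73 in the non-receptive pools of day 3 and at 10.53 to 11.41 in all other pools, while the other 5 genes overlap between most groups.

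TFPI encodes the inhibitor of the tissue factor complex, and 3 probe sets represent it. The brightest of them had 4.40, 3.80 and 4.97 in the non-receptive and 5.25, 4.76 and 5.49 in the receptive pools of day 3. On day 7 it had 6.14, 5.46 and 5.01 in the non-receptive and 6.64, 5.57 and 5.29 in the receptive pools. In the non-receptive group all day 7 pools were above all day 3 pools, by a narrow margin, and in the receptive group the days overlapped. The day 7 minus day 3 difference over both groups was 0.91 ± 0.30 (SE, 6 pools per day), and its adjusted p was 0.0735 (limma). It was 1.15 ± 0.43 in the non-receptive group and 0.67 ± 0.43 in the receptive group, with adjusted p of 0.171 and 0.421 by limma. The receptive minus non-receptive difference was 0.78 on day 3 and 0.30 on day 7, and neither passed (adjusted p = 0.936 and 0.913, limma).

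The other TFPI probe sets were dim. The one in the middle by mean signal ranged from 2.49 to 4.74 over the 12 pools and differed by 0.51 ± 0.33 (SE) between the days over both groups (adjusted p = 0.324, limma). For the dimmest the range was 1.71 to 4.39 and the difference 0.60 ± 0.40 (adjusted p = 0.344, limma). In the non-receptive group the days did not overlap in this dimmest probe set, at 2.63 to 3.09 on day 3 and 3.61 to 3.77 on day 7. The difference there did not pass (adjusted p = 0.48, limma). The middle probe set overlapped between the days in both receptivity groups, and the dimmest did so in the receptive group. The 3 probe sets of TFPI therefore had day differences of 1 sign, and none of them passed.

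THBD encodes thrombomodulin. Its signals were 8.01, 6.69 and 7.14 in the non-receptive and 8.02, 7.93 and 6.62 in the receptive pools of day 3. On day 7 they were 6.98, 6.55 and 7.27 in the non-receptive and 8.17, 7.63 and 6.33 in the receptive pools. The 4 groups overlapped throughout, and the receptive pools of day 7 alone held both the lowest and the highest of the 12 values. The day 7 minus day 3 difference over both groups was -0.25 ± 0.38 (SE, adjusted p = 0.707, limma). Thrombomodulin is known from the vessel wall, but these pools do not show which cells gave its signal. Of the 11 measured genes in the endothelial marker list 3 fell and 0 rose between the days over both groups, where 14.2% of all probe sets passed. Their summed levels were 9.36 to 11.01 on day 3 and 9.01 to 9.50 on day 7. The part of endothelial or other cells in the THBD values was not tested.

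PLG encodes plasminogen, the plasma precursor of plasmin, which is made mainly in the liver. Both of its probe sets were dim, with 11.4% and 6.05% of all probe sets dimmer on average. The brighter one, whose suffix marks probes that may match more than 1 transcript, lay between 1.87 and 4.60 in the 12 pools and differed by 0.26 ± 0.38 (SE) between the days over both groups (adjusted p = 0.693, limma). The dimmer one had 3.05, 4.49 and 4.56 in the non-receptive pools of day 3. In the receptive pools of day 3 it was listed at 0, 0 and 2.01, so 2 of the 3 pools were at the floor. On day 7 it had 2.97, 2.84 and 3.17 in the non-receptive and 3.85, 2.90 and 3.07 in the receptive pools.

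The receptive pools of day 3 were below all other pools in the dimmer PLG probe set. The receptive minus non-receptive difference on day 3 was -3.36 ± 0.57 (SE), and its adjusted p was 0.378 (limma). The day 7 minus day 3 difference in the receptive group was 2.60 ± 0.57 (adjusted p = 0.0512, limma), and 1.96% of all probe sets passed in that comparison. Both differences rest on values at the floor: with every value under 3 set to 3 they were -1.03 and 0.31. The brighter PLG probe set had 3.81, 1.87 and 3.81 in the same receptive pools. In the receptive pools of day 3 the actin gap was 3.11, 1.05 and 1.80, the GAPDH gap 0.74, 1.04 and 0.53 and the EF1A gap -1.27, -0.90 and -1.19, and the part of RNA quality in the PLG values was not tested.

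**Figure D2:**
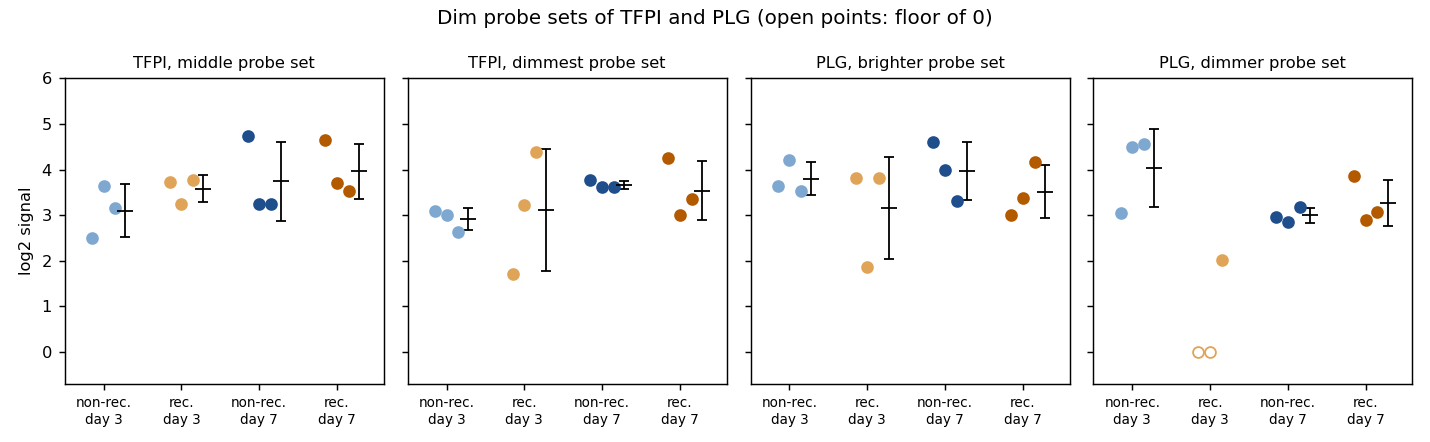
Log2 signal (y axis) of the 4 dim probe sets of TFPI and PLG in the 4 groups of 3 pools; filled points are pools, open points are values at the floor of 0, and black bars are mean ± SD, left out where a value is at the floor. Of these 4, the dimmer PLG probe set in the right panel alone holds values at the floor, in 2 receptive pools of day 3.

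PLAT encodes tissue-type plasminogen activator, and with a mean of 10.25 it was brighter than 92.7% of probe sets. The non-receptive pools of day 3 had 10.52, 10.52 and 10.17 and the receptive pools 9.85, 9.84 and 9.77. The 3 receptive pools lay within 0.08 of each other and below all 3 non-receptive pools. The fitted difference of -0.58 ± 0.53 (SE) did not pass (adjusted p = 0.954, limma). Its SE comes from a spread shared by all groups, and the SD of PLAT was 0.20 and 0.04 in these groups but 1.02 and 0.96 in the non-receptive and receptive pools of day 7. On day 7 PLAT had 10.57, 9.01 and 10.94 in the non-receptive and 10.59, 11.55 and 9.63 in the receptive pools. The day 7 minus day 3 difference over both groups was 0.27 ± 0.37 (adjusted p = 0.67, limma).

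PLAU encodes urokinase, the activator that works at the cell surface. On day 3 it had 7.38, 7.64 and 7.78 in the non-receptive and 8.01, 7.20 and 7.88 in the receptive pools. On day 7 it had 8.64, 7.84 and 9.32 in the non-receptive and 9.93, 9.79 and 7.82 in the receptive pools. In 4 of the 6 pools of day 7 urokinase was above every pool of day 3. In the non-receptive group the days did not overlap, by a narrow margin (7.78 on day 3 against 7.84 on day 7). The share of all probe sets with such a gap between groups was not counted, here or for F3, TFPI and PLAT. The difference over both groups was 1.24 ± 0.39 (SE, 2.36-fold), the largest of the 10 probe sets in this comparison, and it did not pass (adjusted p = 0.0592, limma). Within the receptive group it was 1.48 ± 0.55, and in the non-receptive group the means were 7.60 ± 0.20 and 8.60 ± 0.74 (SD, n = 3), with adjusted p of 0.169 and 0.336 by limma in this order. With each pool left out in turn, the difference over both groups ranged from 1.05 to 1.58, with adjusted p up to 0.123 by limma. It passed without receptive day 7 pool 3 (1.58, adjusted p = 0.0116, limma) and without non-receptive day 7 pool 2 (1.43, adjusted p = 0.0402, limma). Those were the 2 pools with the lowest urokinase of day 7, so leaving either out raises the difference by construction.

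PLAUR encodes the urokinase receptor. Its signals on day 3 were 6.33, 5.29 and 7.32 in the non-receptive and 6.03, 5.92 and 5.73 in the receptive pools. On day 7 the non-receptive pools had 6.50, 5.23 and 7.19 and the receptive pools 8.72, 7.79 and 5.95. The highest values over all 12 pools were those of receptive pools 1 and 2 of day 7, the same 2 pools in which urokinase was highest, while pool 3 of that group was within the range of day 3. The day 7 minus day 3 difference was 0.79 ± 0.52 (SE) over both groups, 1.59 ± 0.74 in the receptive group and -0.01 in the non-receptive group, with adjusted p of 0.342 and 0.263 for the first and second by limma. On day 7 the receptive minus non-receptive difference was 1.18 ± 0.74 (adjusted p = 0.828, limma).

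**Figure D3:**
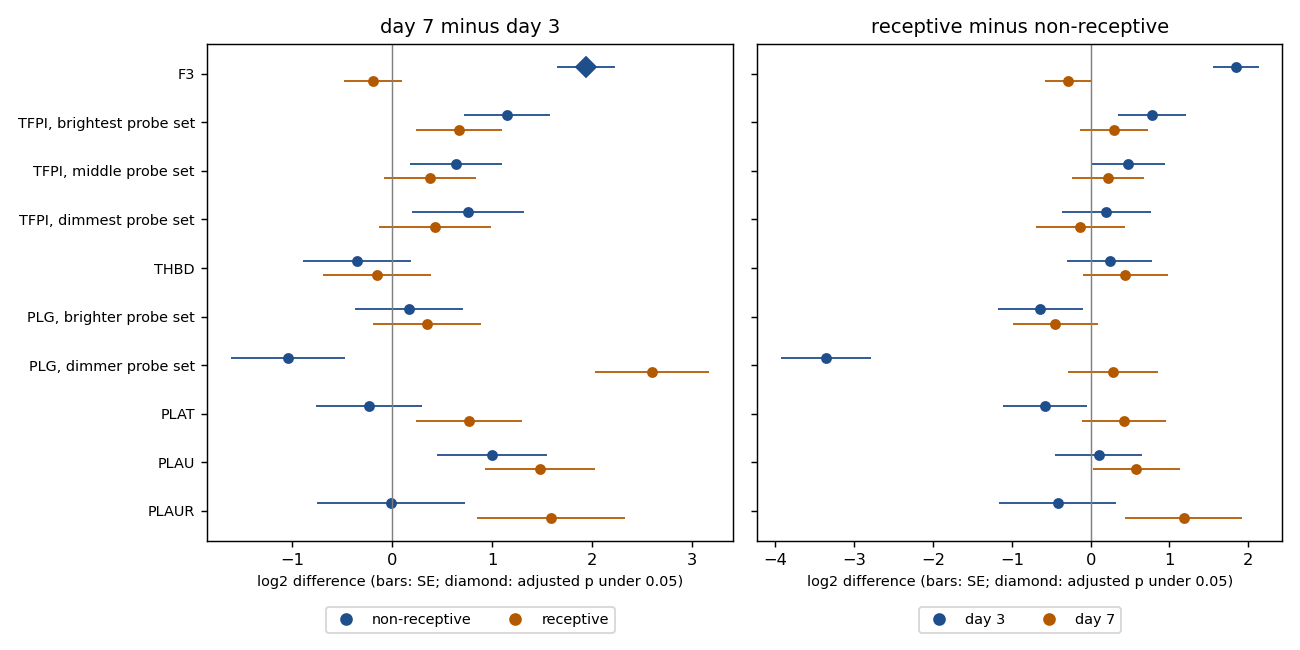
Fitted log2 differences (x axis) of the 10 probe sets, day 7 minus day 3 within each receptivity group on the left and receptive minus non-receptive on each day on the right; bars are standard errors and a diamond marks an adjusted p under 0.05. The 1 diamond is F3 in the non-receptive group (1.94), and the difference farthest from 0 that did not pass is that of the dimmer PLG probe set on day 3 (-3.36), which rests on values at the floor.

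Over the 10 probe sets together, the median day 7 minus day 3 difference over both groups was 0.69, against -0.05 over all probe sets. Of the 10, 9 were above 0 and THBD was the exception, but F3 alone passed. By the same limma fit 3 of the 10 had an unadjusted p under 0.05, against 30.8% of all probe sets. TFPI and PLG have several probe sets among the 10, and both PLG probe sets changed sign under an alternative. The share of all probe sets above 0 was not counted. Among the probe sets that passed, 1144 rose and 2268 fell. The split depended on the scaling: 33.5% of the calls were higher on day 7 on the signals as deposited, 44.1% after quantile normalisation and 50.6% with the median of every array set to the same value. For receptive minus non-receptive, 0 of the 10 probe sets passed on day 3, where 0.0125% of all probe sets passed, 0 on day 7, where 0% passed, and 0 over both days, where 0.00416% passed. By the same limma fit 2, 0 and 2 of them had an unadjusted p under 0.05, namely F3 and the dimmer PLG probe set on day 3 and over both days. The shares of all probe sets under that value were 5.26%, 5.81% and 7.38% in this order. For the difference between the day changes 0 passed and 0% of all probe sets did. F3 and the dimmer PLG probe set were again under an unadjusted 0.05, as were 3.39% of all probe sets. Within the receptive group 0 passed between the days, where 1.96% of all probe sets passed. There 2 of the 10, PLAU and the dimmer PLG probe set, had an unadjusted p under 0.05, against 20.4% of all probe sets. Within the non-receptive group 2 of the 10, F3 and the brightest TFPI probe set, were under that value, against 20.5% of all probe sets.

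The wide ranges of the 2 plasminogen activators, the urokinase receptor and thrombomodulin on day 7 ran beside differences in macrophage, neutrophil and endothelial markers. Macrophages are known to make urokinase and its receptor. Of the 11 listed macrophage genes 9 were measured, and none was at the floor on any array or below 5 on average. Their summed level was 10.01 in non-receptive pool 2 of day 7, where PLAT, PLAU and PLAUR were 9.01, 7.84 and 5.23. In receptive pool 3 it was 10.47, with 9.63, 7.82 and 5.95 for the same 3 genes. In non-receptive pool 1 it was 11.13, with 10.57, 8.64 and 6.50.

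The 3 remaining pools of day 7 had close macrophage levels of 11.88 (receptive pool 1), 11.91 (receptive pool 2) and 11.92 (non-receptive pool 3). PLAU was 9.93, 9.79 and 9.32 in these pools in that order, and PLAUR was 8.72, 7.79 and 7.19. PLAT was 10.59, 11.55 and 10.94, and THBD was 8.17, 7.63 and 7.27. On day 3 the macrophage level was within 10.67 to 11.31, and the non-receptive pool with the highest level, pool 2, had the lowest PLAUR of the day, 5.29. Between the days over both groups 1 of the 9 macrophage genes rose and 0 fell, where 14.2% of all probe sets passed. Between receptivity groups 0 passed on either day, where 0.0125% of all probe sets passed on day 3 and 0% on day 7. Neutrophil markers, 7 of 10 listed genes measured, were also lowest on day 7 in non-receptive pool 2 (14.16) and receptive pool 3 (14.21). They were 14.44 and 14.37 in non-receptive pools 1 and 3 and 14.77 and 14.47 in receptive pools 1 and 2, so both lists had the same 2 lowest pools. The summed endothelial level was lowest in these 2 pools as well, at 9.01 and 9.17, against 9.24 to 9.50 in the other pools of day 7. The neutrophil sum is mostly LTF (mean signal 13.9), which uterine epithelium also makes, and MPO, ELANE and FCGR3A were dim (3.90, 4.10 and 4.61), with none of the 7 at the floor. These values are given as a description, chosen after they were seen, and the part of macrophage, neutrophil or endothelial RNA in the levels of the 4 genes was not tested.

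**Figure D4:**
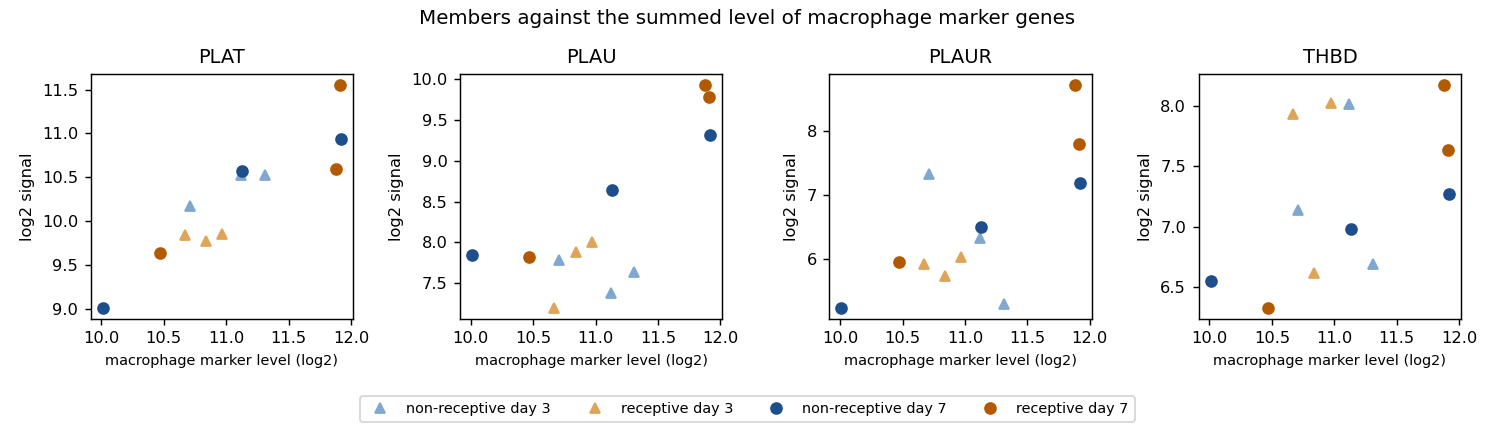
Log2 signal of PLAT, PLAU, PLAUR and THBD (y axes, separate ranges) against the summed log2 level of 9 macrophage marker genes (x axis) in the 12 pools, with triangles for day 3 and circles for day 7. The circles at 10.01 and 10.47 on the x axis have the lowest day 7 values of all 4 genes, whereas the triangle farthest to the right (11.31) has the lowest PLAUR value of day 3 (5.29).

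Other marker lists also differed between the days. Of the 10 listed squamous epithelial genes only 4 were measured, all of them keratins. All 4 rose, from a summed level of 7.85 to 8.59 on day 3 to 8.98 to 11.46 on day 7. Of the 7 measured neutrophil genes 3 rose, from 13.88 to 14.02 to 14.16 to 14.77. Of the 10 stromal genes 3 fell, and the summed stromal level was 12.05 to 14.53 on day 3 and 11.60 to 13.03 on day 7. The share of all probe sets that passed in this comparison over both groups was 14.2%, and these lists are short. In the receptive group, where F3 differed by -0.19, the squamous level was 7.85 to 8.22 on day 3 and 8.98 to 11.15 on day 7. In the non-receptive group, where F3 differed by 1.94, it was 8.16 to 8.59 on day 3 and 10.93 to 11.46 on day 7. The part of these cell types in the day differences of F3, TFPI and PLAU was not tested in either group.

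The wider clotting and plasmin pathways were read from 3 lists of 48 genes, of which 35 were measured by 60 probe sets. Between the days over both groups 5 of the 60 probe sets passed, or 8.33% against the 14.2% of all probe sets, those of 1 gene that rose and 3 genes that fell, and the median difference was 0.04 against -0.05 over all probe sets. By role, 1 of the 22 probe sets of the 13 measured clotting factors and vitamin K cycle genes rose and 0 fell, with a median of -0.05. Of the 19 probe sets of 11 thrombin receptors and clotting inhibitors 3 fell and 0 rose, with a median of 0.02. Of the 19 probe sets of 11 plasminogen activator inhibitors, plasminogen receptors and partners 1 fell and 0 rose, with a median of 0.14.

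F2R, the main thrombin receptor, fell in its brightest probe set, from 6.25 to 7.28 in the 6 pools of day 3 to 5.65 to 6.32 on day 7. The means were 6.88 and 5.86 and the difference was -1.02 ± 0.18 (SE, adjusted p = 0.00765, limma). The dimmest F2R probe set also passed, at -2.10 ± 0.61 (adjusted p = 0.0461), on dim signals that went down to 0.45. The third was at -0.59 ± 0.30 and did not pass (adjusted p = 0.219), so the 3 probe sets had 1 sign.

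PROS1 encodes protein S, the cofactor of activated protein C. Its brighter probe set fell from a mean of 6.88 to 5.56, a difference of -1.31 ± 0.30 (SE, adjusted p = 0.0185, limma), with 6.02 to 7.54 on day 3 and 4.90 to 6.11 on day 7. The dimmer PROS1 probe set differed by -0.03 ± 0.16, so the gene's probe sets did not move alike. SERPINF2, the plasmin inhibitor of plasma, fell by 0.39 in its dimmer probe set, from 6.06 to 5.67 (SE 0.10, adjusted p = 0.0335, limma), and its brighter probe set differed by 0.14 ± 0.08 in the other direction (adjusted p = 0.265), so no direction is given for the gene. GGCX, the carboxylase that activates vitamin K-dependent clotting factors, rose by 0.32 ± 0.08 in its brighter probe set, from 8.60 to 8.92 (adjusted p = 0.0341, limma), with -0.20 ± 0.23 in the dimmer one.

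Over the same days 3 of the 10 stromal and 3 of the 11 endothelial marker genes fell, where 14.2% of all probe sets passed. The part of these cell types in the lower F2R and PROS1 signals was not tested. No probe set of the 3 lists passed in any other comparison by limma. At an unadjusted p under 0.05 there were 8 within the receptive group between the days (13.3% against 20.4% of all probe sets) and 9 within the non-receptive group (15% against 20.5%). Between receptivity groups there were 5 on day 3 (8.33% against 5.26%), 2 on day 7 (3.33% against 5.81%) and 4 over both days (6.67% against 7.38%), and for the difference between the day changes there were 2 (3.33% against 3.39%).

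**Figure D5:**
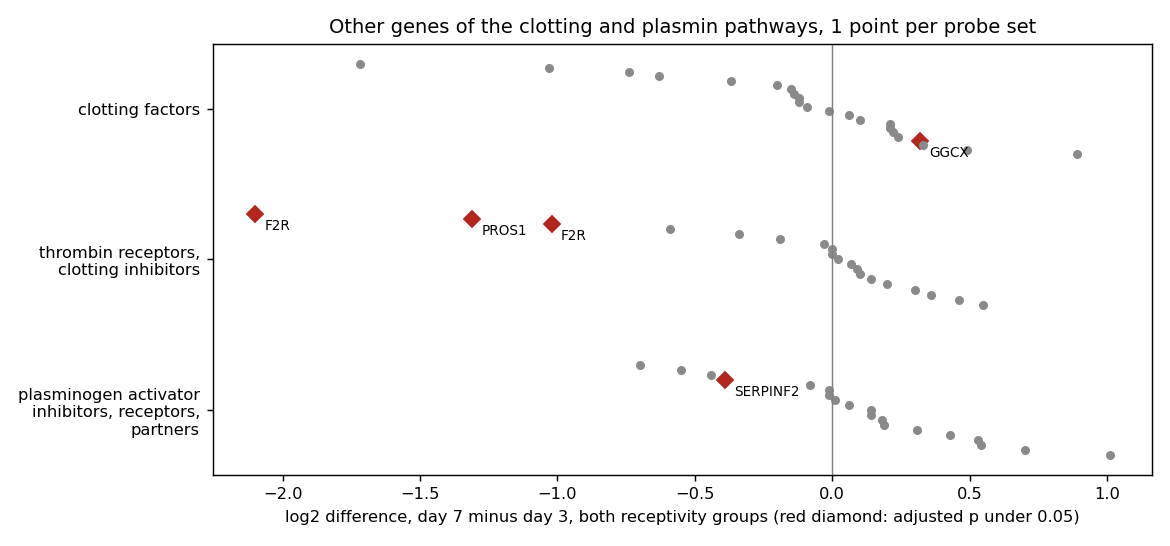
Log2 difference between day 7 and day 3 over both receptivity groups (x axis) for the 60 probe sets of 35 other clotting and plasmin pathway genes, 1 point per probe set, in 3 lists and sorted within each list; red diamonds have an adjusted p under 0.05. The 4 diamonds to the left of 0 are 2 probe sets of F2R (-2.10 and -1.02), PROS1 (-1.31) and SERPINF2 (-0.39), and the 1 to the right is GGCX (0.32).

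The genes whose signals followed each member most closely over the 12 pools were found among 7906 genes by Pearson's r, which is given as a description. All 12 values of each correlation share the 4 groups, so that differences between the days enter it. F3 was most like CDC73 (0.919), CA13 (0.904) and RPL21 (0.896). TFPI was most like NUS1 (0.935), COX15 (0.914) and ERO1A (0.914). THBD was nearest to GNPTG (0.824), IER3 (0.823) and CHSY1 (0.818).

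PLAU had the closest match of all, RALA (0.953), followed by MMP1 (0.945), which encodes a collagenase, and UPP1 (0.935). For PLAUR the 3 were PLEKHB2 (0.926), ADH6 (0.894) and TSPO (0.893). PLAT was most like MSR1 (0.871), a macrophage scavenger receptor that is also on the macrophage list, PSMB4 (0.869) and LAPTM5 (0.864), a lysosomal protein of blood cells. For PLG, in its probe set with no value at the floor, they were PTH1R (0.898), MFAP4 (0.803) and HBG (0.79), at signals of a few log2 units above the floor.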

How the data were processed

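Total RNA of endometrial pools was labelled with biotin and measured on 12 Affymetrix bovine arrays. The deposited values are log2 signals, 1 column per pool; the tools listed in the submitters' processing notes are PLIER, Affymetrix Expression Console and GCOS 1.1.1, and the sources used here do not give which step each served or how arrays were scaled. After 112 control probe sets were left out, 24016 were fitted together on the 4 groups (limma 3.58.1, R 4.3.3, Benjamini-Hochberg adjustment over all probe sets, threshold 0.05), without further normalisation or filter. The script was tested on simulated data.

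Genes were named from the platform annotation: 13292 probe sets have 1 symbol, 86 several and 10638 none. All 10 member probe sets matched RefSeq (ARS-UCD2.0) by gene ID. The members, the 3 pathway lists and the marker lists were chosen with earlier results of these data known. Named were all member probe sets, up to 8 passing genes per pathway list, and the 3 genes most correlated with each member's brightest probe set without floor values (mean of at least 5). Summed levels are the log2 of the sum of a list's linear signals, 1 probe set per gene. Alternatives changed the scaling, the filter on dim values, the variance model and the pools used, and added a replicate block.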

Additional observations from a re-analysis of the deposited data

How the results depend on the processing

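With 3 pools per group, 1 pool can decide a call, and no scan date or batch was in the labels or values used. Passing member probe sets between the days over both groups numbered 1 as reported, 3 with a mean log2 signal of at least 5 (F3, TFPI, PLAU), 2 with no value at 0 (F3, PLAU), 2 with an intensity trend, 3 with array weights, and 0 to 2 with each pool left out in turn: 0 without non-receptive day 3 pool 1 or pool 2. The share of all probe sets that passed moved as well, from 14.2% to 23.1%, 16.4%, 17.0% and 23.4% under the first 4 of these settings and to 7.75% to 15.1% with a pool left out, so the higher member counts are not read as a result about these genes. Within the receptive group the number was 0 as reported and 1 under quantile normalisation or an intensity trend (the dimmer PLG probe set). Within the non-receptive group it was 1 as reported, 0 with only the compared groups fitted (F3, adjusted p = 0.0919 by limma), 2 with array weights, and 0 to 1 with a pool left out. Between receptivity groups on day 3 it was 0, and 1 with array weights (F3, adjusted p = 0.0454 by limma, over a range of 0.0454 to 0.956). Passing pathway probe sets numbered 5 as reported, 10 with array weights and 2 to 6 with a pool left out. Day differences over both groups that changed sign were the dimmer PLG probe set (-0.34 with values under 3 set to 3), the brighter PLG probe set (-0.06 to 0.42 with a pool left out) and THBD (-0.47 to 0.01 with a pool left out); none of these passed in the reported fit, and the causes were not tested. Pools of the same number in different groups had correlations of -0.36 to 0.316 in their deviations from group means, 6 of 18 above 0.1. Most of these pairs cross receptivity groups. Between the days they were 0.307, 0.08 and 0.297 in the receptive and -0.056, 0.073 and -0.06 in the non-receptive group. Receptive pools of different number ranged from -0.359 to 0.084 between the days. Whether pool numbers pair the days within a group was therefore not settled. With the pool number as a replicate block the member counts stayed at 1 over both groups and 1 in the non-receptive group, and 6 pathway probe sets passed. That block is shared by all 4 groups, so it does not model a pairing of the days within each receptivity group. F3 kept its sign in all alternatives run for each of the 7 comparisons.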
